A study of Mus musculus with 3 samples.

Results

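Nuclear receptors are transcription factors that sit on DNA in the nucleus and are switched by small fat-soluble molecules such as oxysterols, fatty acids, retinoids, glucocorticoids and heme. The 10 receptor genes described here, Nr1h2, Nr1h3, Pparg, Ppard, Rxra, Rxrb, Rara, Nr3c1, Nr1d1 and Nr1d2, were taken by symbol as receptors with known roles in macrophages. They are 10 of 55536 annotated genes and of 49 listed nuclear receptor genes, and were chosen with earlier results of these data known. The cells were bone marrow-derived macrophages of C57BL/6J mice, primary phagocytes grown from marrow, and their nuclear RNA was used. One field of the labels calls this fraction the nucleus and another the nucleoplasm. The cells had received 100 ng/ml Lipid A, the membrane anchor of bacterial lipopolysaccharide that is sensed by the receptor Tlr4, for 15 min, and ribosomal RNA was removed before sequencing. All 3 libraries belong to this 1 group, so levels at 1 time after Lipid A are described and no change with Lipid A. Each library has a biosample of its own in the labels, but all 3 share a donor entry, and p-values and SD measure only the spread between these libraries, which may be technical. Age and sex were not collected.

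Most of these receptors work in pairs. LXR, PPAR and RAR proteins bind DNA as heterodimers with an RXR partner, usually on repeats of the hexamer AGGTCA, and hold NCoR-type corepressors until a ligand exchanges these for coactivators. In macrophages, LXR proteins raise cholesterol export, PPAR gamma raises lipid uptake and storage, and both are known to restrain inflammatory genes. The glucocorticoid receptor acts apart from RXR and restrains the same inflammatory genes when steroid is bound. The REV-ERB proteins, products of Nr1d1 and Nr1d2, lack the helix that binds coactivators and repress clock and inflammatory genes through NCoR.

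In replicates 1, 2 and 3, the annotated genes took 18516063, 17345644 and 20947006 expected counts, which a model makes by splitting reads that match several genes. A count of 0 allows up to 3 counts, or 0.162, 0.173 and 0.143 CPM (counts scaled to the library's total), by counting error alone. The input was 500 ng of RNA for replicate 2 and 1 µg for replicates 1 and 3. Macrophage markers were high: 9 of 9 averaged at least 10 counts, and so count as measured here, led by Lyz2 and Csf1r, and their summed level was 2962, 3744 and 3110 TPM (abundance scaled by transcript length and library total). None of the 6 adipocyte, 5 hepatocyte, 6 T cell, 5 B cell or 6 neutrophil markers was measured by that rule. Dendritic cell markers were in 5 of 6, osteoclast markers in 3 of 6 and fibroblast markers in 1 of 6, with summed levels of 1.37 to 3.48, 2.44 to 2.93 and 0.0900 to 0.280 TPM. Adipoq and Lep, which define the adipocyte, the other main site of Pparg, were at 0 to 0.0300 and at 0 TPM. In bulk RNA, fewer cells of a type and less RNA per cell cannot be told apart.

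The promoters of 3 pairs of genes or start sites are shown first, because the transcript counts below differ most between them. RefSeq (GRCm38.p6) lists 17 promoter windows for 9 of the 10 genes, each from 250 bases before to 50 bases after a start. Only bases before the start and outside annotated exons are printed, 5′ to 3′ on the gene's strand. Capitals mark 4 motifs searched on both strands: AGGTCA, the hexamer of nuclear receptors, CACGTG, the E-box of clock factors, GGGCGG, the GC box, and TATAAA, the TATA box. No 2 printed matches overlap. Pparg has a start in a CpG-rich window, a start soon after it, and the start of the longer protein isoform, known as the adipocyte form:
Pparg first start, chr6:115360894-115360950, + strand: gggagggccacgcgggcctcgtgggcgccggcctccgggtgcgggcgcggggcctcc
Pparg middle start, chr6:115362099-115362291, + strand: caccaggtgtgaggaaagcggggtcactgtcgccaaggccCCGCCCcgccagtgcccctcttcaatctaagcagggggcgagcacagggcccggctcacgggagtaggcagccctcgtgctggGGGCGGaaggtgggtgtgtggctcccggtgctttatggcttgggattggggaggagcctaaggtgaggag
Pparg last start, chr6:115421816-115422065, + strand: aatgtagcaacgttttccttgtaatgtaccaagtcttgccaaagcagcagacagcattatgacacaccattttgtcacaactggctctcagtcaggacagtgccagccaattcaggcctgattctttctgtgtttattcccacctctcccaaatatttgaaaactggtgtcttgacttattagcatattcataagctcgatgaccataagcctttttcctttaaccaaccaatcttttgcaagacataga
GC content of the whole 300-base windows was 80.3% at the first start, 62.7% at the middle start and 40.3% at the last, with 44, 13 and 2 CpG dinucleotides. Over all 32851 RefSeq windows of the same length, the median was 52.7% GC (quartiles 45.7% and 61.7%) and 7 CpG. The printed stretch of the middle start held 2 GC boxes, 210 and 127 bases before the start, and the other printed stretches held no match. Only 57 bases are printed for the first start, and its whole window held 1 receptor hexamer and 1 GC box. The whole middle window also held 1 hexamer and 1 TATA box.

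Rxra has 2 RefSeq starts that differ as widely, one with 83.0% GC and 55 CpG and one with 54.3% GC and 1 CpG:
Rxra first start, chr2:27676951-27677200, + strand: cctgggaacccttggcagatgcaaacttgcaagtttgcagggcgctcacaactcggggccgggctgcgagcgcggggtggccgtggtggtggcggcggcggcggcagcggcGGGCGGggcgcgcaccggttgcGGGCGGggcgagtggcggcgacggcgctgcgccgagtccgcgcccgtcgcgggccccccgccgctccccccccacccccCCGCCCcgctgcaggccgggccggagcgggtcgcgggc
Rxra second start, chr2:27709042-27709291, + strand: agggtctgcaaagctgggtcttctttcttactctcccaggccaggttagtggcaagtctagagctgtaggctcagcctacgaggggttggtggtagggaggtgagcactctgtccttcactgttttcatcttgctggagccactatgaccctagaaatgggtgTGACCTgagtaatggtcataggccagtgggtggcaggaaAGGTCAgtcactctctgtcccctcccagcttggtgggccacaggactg
The first stretch held 3 GC boxes and no receptor hexamer. The second held 2 receptor hexamers, 87 and 48 bases before the start, and no GC box.

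The REV-ERB genes have 1 window each, with 56.3% GC and 9 CpG for Nr1d1 and 65.7% GC and 20 CpG for Nr1d2:
Nr1d1, chr11:98775378-98775627, - strand: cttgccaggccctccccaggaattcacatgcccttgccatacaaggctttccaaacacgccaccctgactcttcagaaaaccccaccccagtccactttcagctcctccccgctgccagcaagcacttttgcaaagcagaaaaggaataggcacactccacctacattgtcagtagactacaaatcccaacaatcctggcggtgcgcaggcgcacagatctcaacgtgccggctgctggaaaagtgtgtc
Nr1d2, chr14:18239128-18239356, - strand: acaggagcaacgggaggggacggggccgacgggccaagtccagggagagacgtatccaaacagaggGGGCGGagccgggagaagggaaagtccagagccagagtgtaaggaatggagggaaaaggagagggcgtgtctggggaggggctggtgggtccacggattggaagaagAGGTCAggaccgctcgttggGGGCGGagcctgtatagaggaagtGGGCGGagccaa
The Nr1d2 stretch held 1 receptor hexamer, 77 bases before the start, and 3 GC boxes. No match lay in the Nr1d1 stretch, which says only that these letters are not in these bases. Over the 17 windows of the 9 genes, 10 held a GC box, 5 the hexamer, 2 the E-box and 1 the TATA box. Among all windows these shares were 35.7%, 16.3%, 7.15% and 13.6%. Several of the 17 windows belong to the same gene and some overlap, so they are not independent.

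The 2 LXR genes were unequal, with Nr1h2 above Nr1h3 in each library. Nr1h2 (ENSMUSG00000060601.13, chr7:44549616-44553951, - strand, mm10) encodes LXR beta, the form found in most tissues, and stood at 28.2, 37.0 and 32.7 TPM in replicates 1, 2 and 3, from 790, 745 and 1140 expected counts. Nr1h3 (chr2:91184061-91202834, - strand) encodes LXR alpha, the form of macrophages, liver and fat, and stood at 9.15, 8.02 and 6.91 TPM, from 336, 255 and 334 counts. The lowest Nr1h2 value lay above the highest Nr1h3 value. On the log2(TPM + 0.1) scale Nr1h2 exceeded Nr1h3 by 1.61, 2.19 and 2.23, a mean of 2.01 ± 0.35 (SD, n = 3), or 4.03-fold. An exact permutation test that flips the signs of the 3 differences (two-sided) gave p = 0.25, the smallest p this design allows, so no difference here can pass a threshold of 0.05. A difference is therefore called beyond its spread where its sign was the same in 3 libraries and its mean exceeded 2 SD, which holds for this pair. The size depends on what is counted: it was 1.51 ± 0.27 on CPM, with no correction for length, and 2.74 ± 0.43 over protein-coding transcripts only. An RNA of the same strand, Gm13783, overlaps 34 exon bases of Nr1h3 and held 3 to 15 counts.

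Among PPAR genes, the values moved more between libraries. Pparg (chr6:115360951-115490399, + strand), whose product drives lipid uptake and is best known from fat cells and alveolar macrophages, was at 10.2, 17.96 and 10.4 TPM, from 418, 615 and 589 counts. On TPM, replicate 2 was the high library and the other 2 lay close together, while by counts replicate 1 was the low one. Ppard (chr17:28232700-28301474, + strand), whose product responds to fatty acids and is broadly expressed, was at 5.75, 11.4 and 10.1 TPM, from 417, 698 and 888 counts. Here replicate 1 was the low library, and the ranges of the 2 genes overlapped. Pparg exceeded Ppard by 0.81, 0.65 and 0.05, a mean of 0.51 ± 0.40 (SD, n = 3; exact sign-flip permutation test, p = 0.25), within 2 SD. On CPM, with no correction for length, the mean difference turned to -0.26 ± 0.30, within its spread. Over protein-coding transcripts only it was 1.21 ± 0.32, beyond its spread.

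Pparg RNA was assigned mainly to the first start. The transcript Pparg-202, which begins at chr6:115360951, took 347, 414 and 498 counts, 78.3 ± 9.59% (SD, n = 3) of the gene's counts. Pparg-204, which begins at chr6:115362292 near the middle start, took 29.3, 168 and 53.6 counts, 14.5 ± 11.2%. Its count in replicate 2 was the highest of the 3, as was that of the whole gene. Pparg-201, from the last start and coding for the longer isoform, took 4.61, 12.0 and 5.67 counts, 1.34 ± 0.53%, with posterior standard deviations of 5.26, 8.88 and 6.41 counts. In each library this is within 2 posterior standard deviations of 0. The second transcript table, made by another method, gave Pparg-201 5.63% and Pparg-202 50% of the gene's counts. It gave 16.7% to Pparg-207, a short protein-coding model at 0 counts in the first table.

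The RXR partners were close to each other on TPM of the whole gene. Rxra (chr2:27676440-27762957, + strand), the RXR known as the main partner in myeloid cells, was at 8.91, 9.58 and 8.49 TPM, from 1044, 912 and 1267 counts. Rxrb (chr17:34031812-34038399, + strand), the broadly expressed form, was at 10.9, 8.77 and 12.0 TPM, from 383, 305 and 575 counts. Rxrb was higher in replicates 1 and 3 and Rxra in replicate 2. The difference Rxra minus Rxrb was -0.28, 0.13 and -0.49, a mean of -0.21 ± 0.31 (SD, n = 3; exact sign-flip permutation test, p = 0.5), which does not exceed its spread. Its direction depends on what is counted: it was 1.38 ± 0.22 on CPM and 0.56 ± 0.18 over protein-coding transcripts only. Both of these were beyond their spread, with Rxra the higher. The main transcript of Rxra is 4905 nucleotides long and those of Rxrb 2283 and 2627.

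Nearly all Rxra RNA was assigned to the first of the start sites printed above. Rxra-201, which begins at chr2:27677201, took 1043, 905 and 1264 counts, 99.6 ± 0.36% of the gene's counts. Rxra-202, from the start with 2 receptor hexamers at chr2:27709292, was at 0 counts in each library, with posterior standard deviations of 2.23 to 3.45 counts. The second transcript table gave Rxra-201 82.6%, Rxra-202 5.76% and Rxra-203, which begins at chr2:27710583, 10.01%, so the share of later starts depended on the method. For Rxrb, 2 transcripts shared the counts: Rxrb-202 took 42.3 ± 5.02% and Rxrb-201 34.2 ± 6.39%.

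Rara (chr11:98927818-98974942, + strand) encodes the retinoic acid receptor alpha, which holds genes repressed until all-trans retinoic acid binds. It had the smallest relative spread of the 10 on the TPM scale, with 7.06, 7.26 and 6.55 TPM from 456, 393 and 552 counts. Its counts were divided over 3 protein-coding transcripts: Rara-204 took 46.9 ± 3.37%, Rara-202 27.0 ± 4.99% and Rara-207 26.1 ± 6.15%. Rarg, another retinoic acid receptor gene outside the 10, was at 4.77, 7.68 and 6.39 TPM, below Rara in replicates 1 and 3 and above it in replicate 2.

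Nr3c1 (chr18:39410545-39519421, - strand) encodes the glucocorticoid receptor, which waits in the cytoplasm with Hsp90 until steroid binds. It had the most counts of the 10 genes, 2007, 2231 and 2280, on long transcripts, and 19.8, 20.6 and 16.5 TPM. Its libraries were within a factor of 1.24 of each other on normalised CPM. Nr3c1-204 took 56.5 ± 19.3%, Nr3c1-203 30.6 ± 14.0% and Nr3c1-208 11.1 ± 4.78% of the counts. The first 2 share most of their sequence, and the model gave each a posterior standard deviation of 161 to 168 counts.

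The REV-ERB genes were the most unequal pair. Nr1d2 (chr14:18204054-18239127, - strand), which encodes REV-ERB beta, was at 15.2, 30.1 and 22.8 TPM, from 1067, 1893 and 1939 counts. Nr1d1 (chr11:98767932-98775333, - strand), which encodes REV-ERB alpha, was the lowest of the 10 in each library, at 1.07, 2.25 and 2.93 TPM from 48.7, 92.0 and 184 counts. Both were lowest in replicate 1, and their ranges were far apart. Nr1d1 minus Nr1d2 was -3.71, -3.68 and -2.92, a mean of -3.44 ± 0.45 (SD, n = 3; exact sign-flip permutation test, p = 0.25), beyond its spread. That places Nr1d2 10.8-fold higher on TPM. The difference was -4.04 ± 0.57 on CPM and -3.08 ± 0.57 over protein-coding transcripts only. The 3′ end of Nr1d1 overlaps that of Thra, the thyroid hormone receptor alpha gene on the other strand, over 1075 bases, 263 of them in exons of both. Whether the counting used strand is not given in the sources used here, so reads in those bases cannot be told apart by strand. Thra held 130, 208 and 275 counts. The Nr1d1 counts are not whole numbers, and their posterior standard deviations were 0.670, 0.700 and 1.57 counts. Nr1d1-201 took 90.6 ± 1.69% of the Nr1d1 counts and Nr1d2-201 85.8 ± 3.26% of those of Nr1d2.

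Ordered by mean TPM, the levels were Nr1h2 at 32.6 ± 4.43 (SD, n = 3 throughout), Nr1d2 at 22.7 ± 7.44, Nr3c1 at 18.9 ± 2.18, Pparg at 12.9 ± 4.42 and Rxrb at 10.5 ± 1.62. They went on with Ppard at 9.06 ± 2.94, Rxra at 8.99 ± 0.55, Nr1h3 at 8.03 ± 1.12, Rara at 6.96 ± 0.37 and Nr1d1 at 2.08 ± 0.94. Of the 9 steps between neighbours, 1 was beyond its spread, that from Rara down to Nr1d1, with 1.80 ± 0.75 on the log2 scale or 3.48-fold. For 3 further steps, Nr1h2 to Nr1d2, Nr3c1 to Pparg and Nr1h3 to Rara, the sign was the same in 3 libraries but the mean was within 2 SD. The order in the middle, from Pparg to Rara, is thus not fixed step by step. These levels also include retained-intron models, annotated transcripts that still carry introns. Such models held 57.6% of the TPM of Nr1h3, 45.3% of Nr1d2, 44.9% of Ppard, 42.6% of Rxrb, 29.3% of Nr1h2 and 13.2% of Pparg. Rxra, Rara, Nr3c1 and Nr1d1 have none, so the order over protein-coding transcripts only can differ, as for Rxra and Rxrb above. Of all 45 pairs, 37 kept their sign in 3 libraries and 27 were beyond their spread. All 45 exact sign-flip permutation tests had p of 0.25 or more, and 0.304 or more after Benjamini-Hochberg adjustment over the 45. Against 11960 measured protein-coding genes, whose median was 6.88 TPM (quartiles 2.35 and 16.2), 9 of the 10 lay above the median and 3 above the upper quartile. Nr1d1 was below the lower quartile. Rara passed the median narrowly, and within libraries it lay below the median in replicates 1 and 2 (7.06 against 7.285 and 7.26 against 7.34 TPM). Ppard lay below it in replicate 1, at 5.75 TPM.

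**Figure D1:**
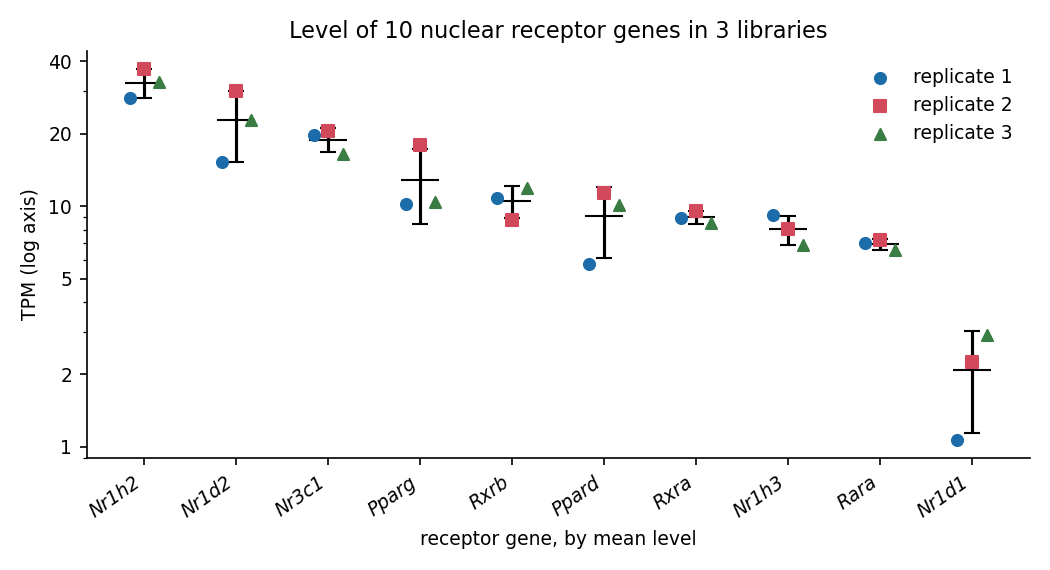
Level of each of the 10 receptor genes in TPM on a log axis, with 1 point for each library, a long bar at the mean and error bars of 1 SD (n = 3). Retained-intron models are included in the levels. Nr1h2 stands at 28.2 to 37.0 TPM, Nr1d1 at 1.07 to 2.93 TPM, and from Pparg to Rara the points of each gene overlap those of the next.

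Among the 49 listed nuclear receptor genes, 24 were measured: the 10 described here and 14 of the other 39. Of the other 39, 21 had at most 3 counts in each library and 15 had 0 in each. The 10 genes took ranks 2, 3, 4, 7 to 12 and 19 by mean TPM. Rank 1 was Nr4a1, an orphan receptor known as an immediate early gene, at 50.8, 56.1 and 152 TPM. Its replicate 3 was 4.16-fold above the mean of the other 2 libraries on normalised CPM. The next of the others were Esrra, a regulator of mitochondrial genes, at 16 ± 3.05 TPM, Nr2c2 at 14.6 ± 3.99 TPM and Rarg at 6.28 ± 1.46 TPM. At the low end were Nr4a3 at 0.0600, 0.840 and 1.36 TPM and Nr1i3, a xenobiotic receptor of liver, at 0.200, 0.270 and 0.10 TPM. At least 5 TPM was reached by 13 receptors, 9 of them among the 10. The 10 together held 47.4% of the TPM of all 49.

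**Figure D2:**
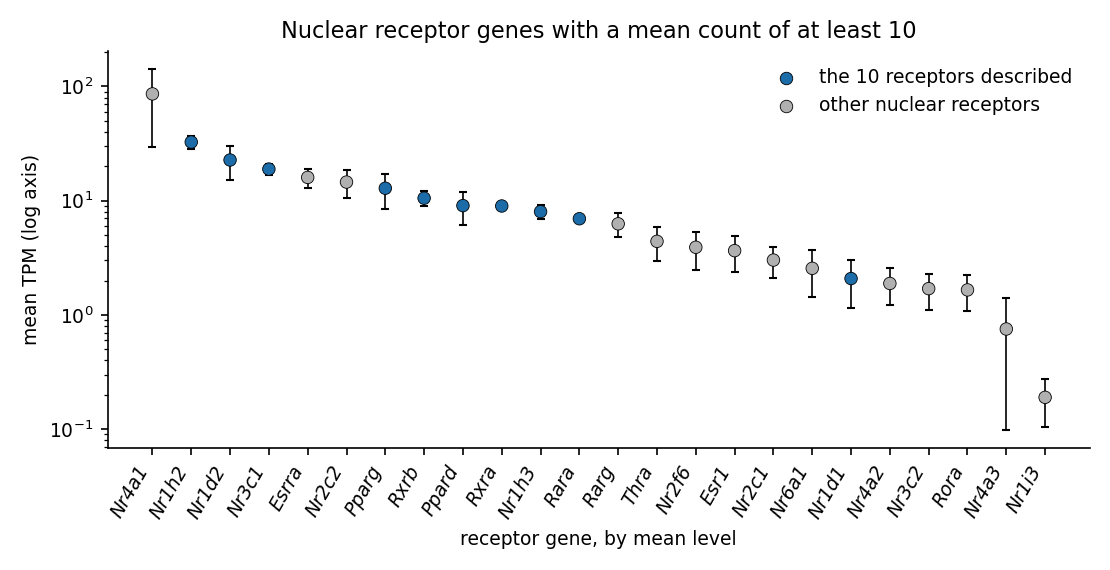
Mean TPM on a log axis of the 24 nuclear receptor genes measured at 10 or more counts on average, with error bars of 1 SD (n = 3); blue points are the 10 receptors described and grey points the others. Nr4a1 at 86.1 TPM is the highest and Nr1i3 at 0.190 TPM the lowest, and 9 of the 10 blue points are at 6.96 TPM or above.

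To compare libraries, counts were put on normalised CPM with TMM factors. The share of all genes lowest, or above the others, in each library was not computed. The counts of receptors that follow therefore have no background, and the 10 genes are not replicates of a library. On this scale 6 of the 10 were lowest in replicate 1 (Nr1h2, Pparg, Ppard, Nr3c1, Nr1d1 and Nr1d2) and 4 in replicate 2 (Nr1h3, Rxra, Rxrb and Rara). In replicate 3 all 10 were above the mean of the other 2 libraries, by 0.06 to 1.38 on the log2 scale. TPM did not show this for all 10: Nr3c1, Rxra, Nr1h3 and Rara were lowest in replicate 3, and Rxrb and Nr1d1 highest there. The median over the 10 of each library's deviation from the other 2 was -0.29, -0.05 and 0.37, beside 0.02, 0.00 and -0.00 over all 15876 measured genes. Other lists moved too: the medians were -0.15, -0.25 and 0.48 over the 9 macrophage markers and -0.62, 0.34 and 0.31 over the 14 other measured nuclear receptors. With library totals in place of TMM factors, 7 of the 10 were above the others in replicate 3. The medians were then -0.15, -0.01 and 0.19, beside 0.15, 0.04 and -0.18 for all genes, and the member medians still lay below all genes in replicate 1 and above them in replicate 3. Protein-coding genes held 27.5%, 35.6% and 21.3% of TPM in the 3 libraries, and the part of this in the deviations was not tested.

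Only 1 of the 10 was at least 2-fold away from both other libraries. Nr1d1 was lower in replicate 1, with 2.59 normalised CPM against 5.32 and 9.64 in replicates 2 and 3. Of all 15876 genes, 3.22% were at least 2-fold below both others in replicate 1. The call rests on a narrow margin, 2.06-fold to the next library, and with library totals it was 1.97-fold and lost (2.48% of all genes called there). It held with DESeq2 size factors (3.30%) and with no filter on low counts (1.36%). For the other directions and libraries the count was 0 of 10, beside 4.86%, 0.857% and 1.55% of genes above in replicates 1, 2 and 3 and 2.22% and 1.39% below in replicates 2 and 3. At 1.5-fold, Ppard, Nr1d1 and Nr1d2 were below in replicate 1 (8.46% of all genes) and Rxrb and Nr1d1 above in replicate 3 (4.89% of all genes). No receptor was above in replicates 1 or 2 (10.4% and 3.99% of all genes) or below in replicates 2 or 3 (6.25% and 5.74%). Ppard was at 21.2, 39.6 and 46.1 normalised CPM and Nr1d2 at 54.1, 107 and 101. Nr1h3, Nr3c1, Rxra and Rara were the steadiest, with a ratio of highest to lowest library of 1.20, 1.24, 1.27 and 1.28. The SD of log2 CPM over libraries had a median of 0.34 over the 10 (0.14 to 0.95), beside 0.32 over all genes.

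**Figure D3:**
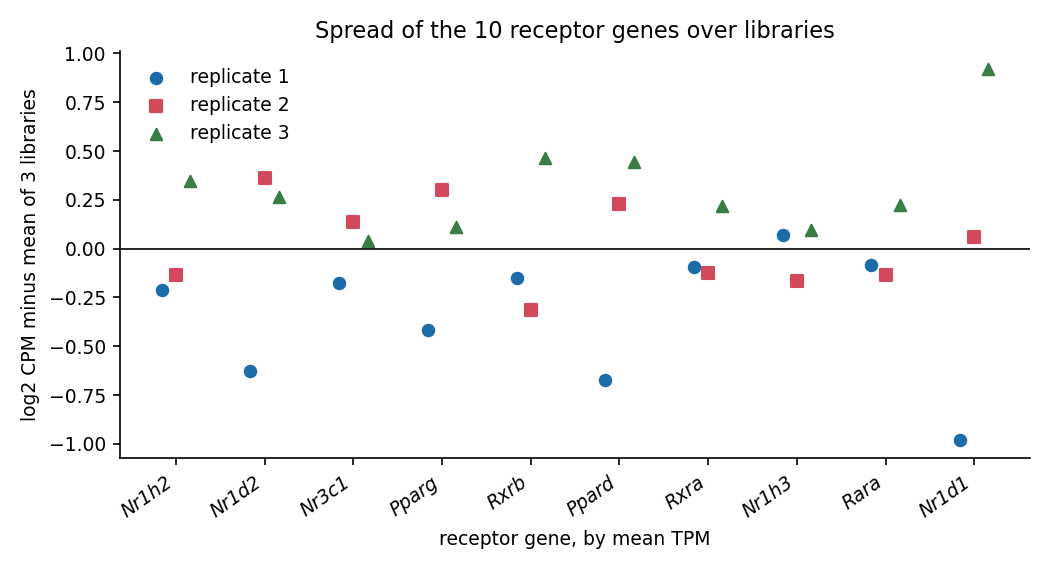
Deviation of each library from the mean of the 3 libraries, in log2 normalised CPM, for the 10 receptor genes, with 1 point for each library. Replicate 3 (triangles) is above 0 for all 10 with TMM factors, and Nr1d1 spans the widest range, from 2.59 to 9.64 normalised CPM.

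Nuclear RNA can hold transcripts that still carry introns, and the annotation lists such models as retained-intron transcripts. Of the 10 genes, 6 have at least 1 such model, and the share of the gene's counts that went to them differed widely. Nr1h3 had 53.5%, 64.0% and 48.5% in replicates 1, 2 and 3, a mean of 55.3 ± 7.90% (SD, n = 3). One model, Nr1h3-208, took 45.7 ± 6.22%, more than the protein-coding Nr1h3-202 at 19.9 ± 2.08% and Nr1h3-201 at 17.0 ± 3.56%. Ppard had 43.0%, 43.2% and 43.4%, almost the same in each library, with 34.1 ± 2.09% in Ppard-208 and 56.6 ± 0.30% in the protein-coding Ppard-201. For Nr1h2 the share was 29.2%, 24.95% and 37.6%. Its counts were spread over Nr1h2-201 at 36.02 ± 13.3% and Nr1h2-202 at 12.7 ± 4.37%, both protein-coding, and the retained-intron models Nr1h2-205 at 16.8 ± 6.16% and Nr1h2-208 at 10.9 ± 1.98%. Rxrb had 16.4 ± 4.25%, Nr1d2 14.1 ± 3.37% and Pparg 5.59 ± 3.23%. Over 7231 measured genes with such a model, the median share was 19.3% (quartiles 6.22% and 40.1%), and 3 of the 6 lay above it. Rxra, Rara, Nr3c1 and Nr1d1 have no annotated model of this type. The share covers annotated models of this type and not all unspliced RNA. As a share of TPM the values were 57.6% for Nr1h3, 44.9% for Ppard and 29.3% for Nr1h2. They were 42.6% for Rxrb, 45.3% for Nr1d2 and 13.2% for Pparg, over 2 times their share of counts.

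**Figure D4:**
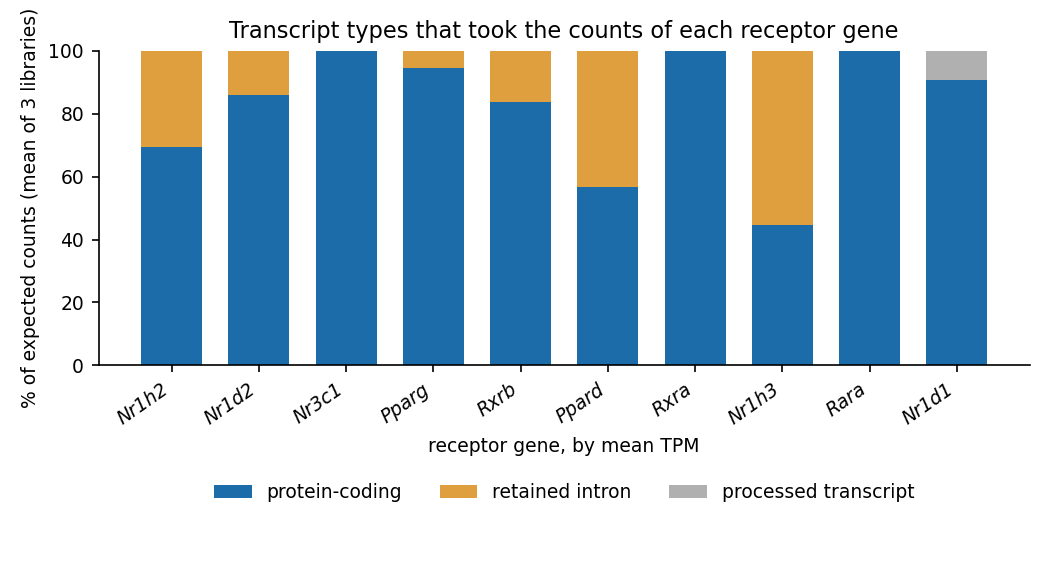
Share of each receptor gene's expected counts, in percent, in protein-coding, retained-intron and processed transcripts of the annotation, as means over 3 libraries. Retained-intron models took 55.3% for Nr1h3 and 43.2% for Ppard, and Rxra, Rara, Nr3c1 and Nr1d1 have no such model.

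Corepressors that the receptors recruit were all present. All 8 listed genes of the NCoR complex and its partners were measured. Their median level came to 12.6 ± 3.09 TPM (SD, n = 3). Ncor1, the platform of the complex, was at 74.7, 106 and 64.4 TPM, above each of the 10 receptors in each library. The subunits Gps2 and Tbl1xr1 were at 14.1 ± 1.24 and 13.1 ± 2.75 TPM. The lowest were Nrip1 at 9.48 ± 2.37 and Tbl1x at 7.77 ± 2.13 TPM. None of the 8 was 2-fold away from both other libraries, beside 0.857% to 4.86% of all genes in each library and direction.

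Coactivators had 11 of 12 genes measured and a median of 14.3 ± 3.16 TPM. Ncoa4, also known for carrying ferritin to lysosomes, was at 28.3, 94.6 and 64.1 TPM. It was the only coactivator at least 2-fold from both others, below them in replicate 1, beside 3.22% of all genes. The acetyltransferase gene Ep300 was at 38.5 ± 9.97 TPM, Ncoa3 at 33.7 ± 5.94 TPM and Ncoa6 at 28.6 ± 8.28 TPM. Carm1 was at 9.59 ± 1.59 TPM and Ppargc1b at 2.17 ± 0.72 TPM. Ppargc1a, which encodes the PPAR gamma coactivator of muscle, liver and brown fat, was not measured, with 2, 0 and 4 counts.

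Ligand supply and receptor chaperones had 12 of 17 genes measured. The Hsp90 genes Hsp90ab1 and Hsp90aa1, whose products hold the glucocorticoid receptor ready for steroid, were at 75.3 ± 27.2 and 33.0 ± 7.61 TPM. Hmox1, which breaks down heme, the REV-ERB ligand, was at 38.3 ± 13.6 TPM. Cyp27a1, which makes an oxysterol ligand of LXR, was at 16.1, 91.3 and 85.1 TPM, below both others in replicate 1. Ch25h, which makes another oxysterol, was at 1.80, 0.210 and 0.130 TPM, above in replicate 1 on 53, 5 and 5 counts. Aldh1a3, which makes retinoic acid, was at 0.193 ± 0.0907 TPM, above in replicate 3 on 6, 6 and 18 counts. The shares of all genes were 3.22% below and 4.86% above in replicate 1, and 1.55% above in replicate 3.

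Target genes of the receptors were taken as lists, with a level and no test of activity. Of 14 LXR targets, 13 were measured, with a median over the list of 28.7 ± 5.58 TPM. Apoe, which loads cholesterol onto lipoproteins, was at 767, 750 and 1122 TPM and above both others in replicate 3. The lipase gene Lpl was at 280 ± 104, the transfer protein gene Pltp at 167 ± 49.8 and the lipid droplet gene Plin2 at 162 ± 23.8 TPM. The cholesterol exporters Abca1 and Abcg1, the other called genes of the list, were below both others in replicate 1: 77.3, 171 and 134 TPM for Abca1, and 10.8, 46.1 and 31.6 TPM for Abcg1. The calls of Apoe and Abca1 were narrow on normalised CPM, 2.00-fold and 2.05-fold to the nearer library, and were lost with library totals, at 1.73-fold and 1.94-fold. Over all genes, 3.22% were called below in replicate 1 and 1.55% above in replicate 3. The lowest measured targets were Fasn at 12.7 ± 9.10 and Scd1 at 0.923 ± 0.384 TPM.

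PPAR targets shared Lpl and Plin2 with that list, and 9 of 12 were measured, with a list median of 16.8 ± 1.82 TPM. The fatty acid carrier gene Fabp5 was at 137, 233 and 220 TPM, below in replicate 1 by 2.05-fold to the nearer library, and by 1.95-fold with library totals, which ends the call. The scavenger receptor gene Cd36 went the other way, at 202, 99.3 and 51.4 TPM, above in replicate 1. Angptl4 was at 0.813 ± 0.332 TPM, also below in replicate 1, and Klf4 at 0.750 ± 0.157 TPM. Beside these calls, 3.22% of all genes were below and 4.86% above in replicate 1.

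Retinoic acid targets were the least present of the 4 target lists, with 3 of 8 genes measured and a list median of 0.0650 ± 0.0304 TPM. Within it Dhrs3, a retinaldehyde reductase gene, stood at 138, 272 and 229 TPM, and Tgm2 at 24.9, 14.8 and 17.5 TPM.

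Glucocorticoid targets were measured in 12 of 12, with a list median of 28.6 ± 9.60 TPM. They were led by genes that Toll-like receptors are also known to raise: Zfp36 at 348 ± 35.1, Nfkbia at 198 ± 110, and Dusp1 at 163 ± 17.5 TPM. Anxa1, a mediator of steroid action, was at 75.9 ± 16.8 TPM. Nfkbia, the inhibitor of NF-kB, was at 250, 71.8 and 273 TPM and below both others in replicate 2 (2.22% of all genes). Fkbp5, an Hsp90 cochaperone gene and standard readout of steroid, was at 3.83, 1.18 and 0.510 TPM, above in replicate 1 (4.86% of all genes). The list as a whole did not share this. Its median log2 deviation on normalised CPM was -0.39, -0.20 and 0.61 in replicates 1, 2 and 3. The lowest were Zbtb16 at 1.59 ± 1.13 and Klf9 at 0.753 ± 0.326 TPM.

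Clock genes, the best known REV-ERB context, had 15 of 17 members measured and a list median of 2.92 ± 0.68 TPM. The output gene Tef was at 12.3, 24.8 and 21.5 TPM, Clock at 19.5, 25.1 and 11.6 TPM and Bhlhe41 at 13.1, 18.8 and 11.9 TPM. Dbp, another output gene, was at 2.85, 14.8 and 18 TPM, 0.155 times the other libraries in replicate 1 on normalised CPM. Per3 and Nfil3 were also below both others in replicate 1, making 3 of 15 measured clock genes, beside 3.22% of all genes. The median log2 deviation in replicate 1 was -0.62 over the measured clock genes and also -0.62 over the 14 other measured nuclear receptors. Arntl, the clock activator gene that REV-ERB proteins repress, is reported here for that role and was at 4.03, 3.66 and 2.54 TPM. With 3 libraries no relation between these genes was computed. The lowest were Npas2 at 0.927 ± 0.602 and Per2 at 0.333 ± 0.0681 TPM.

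**Figure D5:**
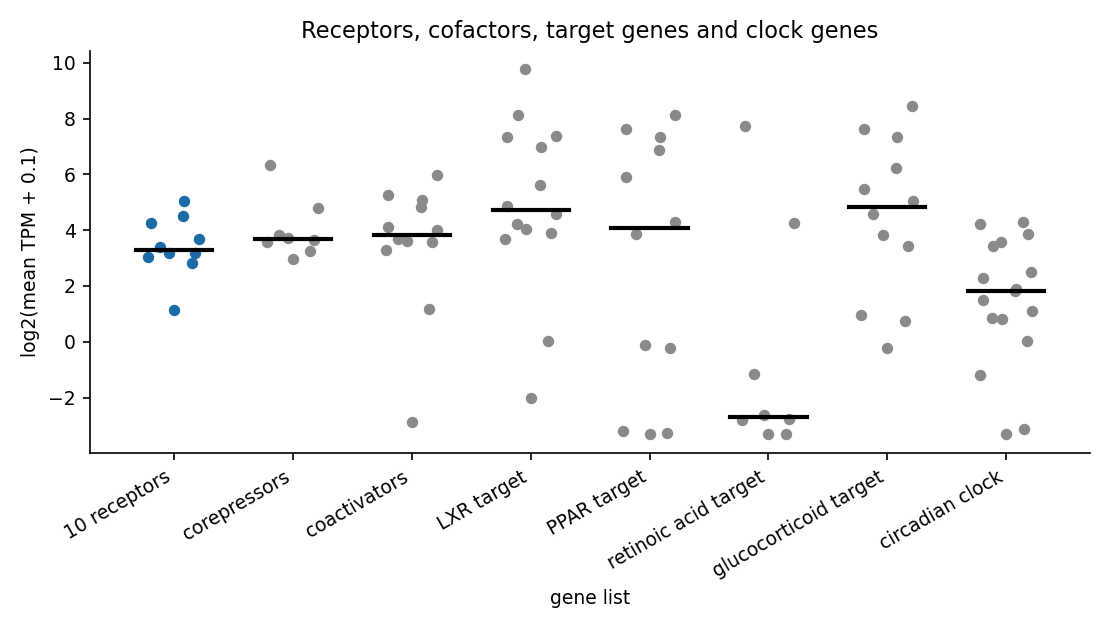
Mean level over 3 libraries, as log2(TPM + 0.1), of each gene of the 10 receptors and of the cofactor, target and clock lists, with a bar at the median of each list. The receptors have a median of 10.1 TPM, retinoic acid targets of 0.0650 TPM and LXR targets of 28.7 TPM.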

How the data were processed

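Ribosome-depleted RNA of the nuclear fraction was sequenced in 3 libraries of 1 group. The deposited gene and first transcript tables hold expected counts and TPM, with RSEM's column names per the file headers. Their posterior standard deviations of counts, deposited by the authors, were used as a score of how firmly reads were divided. Estimated counts and TPM of a second transcript table were also deposited, under kallisto's column names. The deposited notes name mouse build mm10 and GENCODE M21. Not given in the sources used here are program versions and the strand setting. Rows that name no gene, 1.24%, 0.372% and 0.0641% of counts, were left out.

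Gene differences were taken within a library on log2(TPM + 0.1), where folds of low genes are understated, and tested with exact sign-flip permutations. For comparisons of libraries, expected counts were rounded, genes averaging at least 10 counts (called measured) kept, and log2 CPM computed with edgeR 4.0.16 (TMM factors 1.07, 1.02 and 0.921, prior count 2). DESeq2 1.42.0 gave alternative scaling factors, and neither tool's test was run. Fold calls were tested on simulated data with counting error only. Such data cannot show how often spread between libraries gives a call.

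The receptors and lists were chosen with earlier results of these data known. The text names all 10 receptors, their transcripts with at least 10% of counts, and in each list the 4 highest and 2 lowest measured genes, except some that are not reported here. Other names (Abca1, Abcg1, Per3, Nfil3, Fkbp5, Thra, Arntl, Ppargc1a and markers, transcripts of other starts) were added after their values were seen.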

Additional observations from a re-analysis of the deposited data

How the results depend on the processing

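Of 230 alternative values, 176 were classed as kept, 51 as moved and 3 as turned. Kept means the same direction, a level or share within 1 SD, a count within a factor of 1.5, or a call that held. Leaving out 1 of 3 libraries cannot move a mean by 1 SD, so levels and shares were kept there by construction. Keeping direction is not keeping size: Pparg minus Ppard was 1.27 in the second table and 1.21 over protein-coding transcripts only, and Rxra minus Rxrb -0.01 in the second table. With no correction for length (CPM), Pparg minus Ppard turned to -0.26 and Rxra minus Rxrb to 1.38, and over protein-coding transcripts only, Rxra minus Rxrb turned to 0.56; the cause was not tested. The median level of the 10 receptors, 10.1 TPM, was 37.5 when TPM was rescaled over protein-coding genes, by construction of a smaller total, and 6.02 in the second table. Receptors at least 2-fold away from both other libraries numbered 1 with TMM factors, with DESeq2 size factors and with no filter, 0 with library totals and 4 at a fold of 1.5. The median retained-intron share, 23.5%, was 29.5% by the second table's counts and 42.5% by TPM. Leaving out each replicate in turn gave 1.90 to 2.21 for Nr1h2 minus Nr1h3, 0.35 to 0.73 for Pparg minus Ppard, -0.39 to -0.08 for Rxra minus Rxrb and -3.70 to -3.30 for Nr1d1 minus Nr1d2. It gave 37 to 42 pairs of 1 sign, a median level of 9.96 to 10.4 TPM and a median share of 20.96% to 26.1%. Pair counts under other settings, and calls of single list genes under other scalings, were chosen after seeing the data. No paired analysis was possible because there is 1 group. Nr1d1, with 48.7 to 184 counts, is the receptor most limited by depth.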

Other observations

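In the second transcript table the 10 receptors were all lowest in replicate 3, where Nr1h2 was at 12.0, 26.8 and 5.03 TPM in replicates 1, 2 and 3 and Nr1d2 at 7.01, 22.7 and 3.84 TPM. Their estimated counts in that table showed no such drop, with 940, 1159 and 1366 for Nr1h2 and 1252, 2880 and 2349 for Nr1d2. By its mean Pparg was the highest receptor there, at 11.3, 51.6 and 3.40 TPM (22.1 ± 25.9, SD, n = 3), but this rests on replicate 2. Without it, Pparg was at 7.33 and Nr1h2 at 8.51 TPM. The first table placed Pparg at rank 4 of the 10. These are values of the same libraries by another method, and the cause was not tested.

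The tables also divided Nr3c1 differently. Nr3c1-204 took 734, 1674 and 1318 expected counts in the first table and 0.321, 1696 and 186 estimated counts in the second, while Nr3c1-203 took 924, 420 and 617 against 1699, 1139 and 1750. The sums over the gene were 2007, 2231 and 2280 against 2312, 3227 and 2576. The split between these transcripts thus differed by library and by method more than the count of the gene did.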
